A study of Mus musculus with 19 samples.

Results

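Triacylglycerol synthesis and glyceroneogenesis were read here through 8 genes, taken from the deposited table of 24237 genes by their symbols: Pck1, Gpd1, Aqp7, Gpam, Agpat2, Lpin1, Dgat1 and Dgat2. Their mRNA expression was measured by RNA sequencing of epididymal white adipose tissue (eWAT) from male C57Bl6/J mice, which were 9 to 10 weeks old when they were allocated to the diets and received them for 17 weeks. The 4 diets were NormMg-LFD (n = 4 mice), LowMg-LFD (n = 5), NormMg-HFD (n = 5) and LowMg-HFD (n = 5). Palm oil fat supplied 10% of energy in the LFDs and 60% in the HFDs, and magnesium oxide made up 0.21% (wt/wt) of the NormMg diets and 0.03% of the LowMg diets. The labels name no transgene or deletion in any group. Each mouse gave 1 library, so the spread between libraries is the spread between mice.

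Adipocytes store fatty acids as triacylglycerol, which is built on a backbone of glycerol 3-phosphate. The backbone is made from glucose by glycolysis or from pyruvate by glyceroneogenesis, for which the cytosolic phosphoenolpyruvate carboxykinase (Pck1) is the controlling enzyme in white fat. Both routes end in the reduction of dihydroxyacetone phosphate by glycerol 3-phosphate dehydrogenase (Gpd1). Glycerol itself crosses the adipocyte membrane through the aquaglyceroporin Aqp7. Fatty acyl groups are then added in steps: the mitochondrial acyltransferase Gpam adds the first, Agpat2 the second, the phosphatidate phosphatase Lpin1 removes the phosphate, and Dgat1 and Dgat2 add the last acyl group.

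The authors deposited the values as FPKM, fragments scaled to transcript length and library size, so that levels can be set side by side between genes. Libraries held 12986441 to 13027028 reads, of which 86.12% to 90.41% were mapped. All 8 genes passed the filter on low values, which kept 8336 genes. Fold changes come from group means on the log2(FPKM + 1) scale, so that they differ from the ratio of the mean FPKM. They were tested with limma, and p-values carry a Benjamini-Hochberg adjustment across these 8336 genes, with a threshold of 0.05. In bulk tissue, fewer cells of a type and less RNA per cell cannot be told apart. Some libraries stood apart. The summed FPKM of 10 exocrine pancreas genes was 1510 in NormMg-LFD replicate 3 and 12.9 to 52.2 in the other mice, and that of 5 epididymis genes was 131 in LowMg-LFD replicate 4 and at most 3.81 in the others. In NormMg-LFD replicate 4 all 8 genes were at their lowest level of that group, and so was the summed FPKM of 8 adipocyte markers (10913, against 15256 to 16431 in the other NormMg-LFD mice). The study left out a LowMg-HFD mouse for pancreatic tissue. The labels used here do not name it, and the pancreas genes summed to 20.9 to 44.5 in the 5 LowMg-HFD mice.

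The genes lie on 6 chromosomes (GRCm38, GENCODE vM21). Pck1 (chr2:173153048-173159273, plus strand) and Agpat2 (chr2:26593057-26604417, minus strand) share chromosome 2, and Gpd1 (chr15:99717515-99725005, plus strand) and Dgat1 (chr15:76502015-76511953, minus strand) share chromosome 15. Aqp7 is at chr4:41033074-41048139, Dgat2 at chr7:99153658-99182719, Lpin1 at chr12:16535669-16610966 and Gpam at chr19:55067268-55127238, all on the minus strand. All are protein-coding. Exons of Agpat2 overlap those of Egfl7 on the other strand (70.8 to 136 FPKM across the mice), and exons of Gpd1 overlap the antisense gene Gm16537. Whether reads were assigned by strand is not given in the sources used here, so the levels of Agpat2 and Gpd1 are uncertain to that extent.

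Promoter windows of 300 bases, from 250 before to 50 after the transcription start, were read from RefSeq (GRCm38.p6) and matched 5 of the 8 genes, with 7 windows in all. Those of Pck1, Gpam and Lpin1 are shown because these genes moved with the diets below. Dgat1 moved as well, but no window was matched for it, nor for Gpd1 and Dgat2. Capitals mark the motifs searched on both strands: ACGTCA (part of a cAMP response element), AGGTCA (part of a nuclear receptor site), CCAAT (the CCAAT box), the TATA boxes TATAAA and TATTTAAA, the E-box CACGTG and the GC box GGGCGG. No match in the windows shown overlaps another.
Pck1, chr2:173152823-173153122, plus strand: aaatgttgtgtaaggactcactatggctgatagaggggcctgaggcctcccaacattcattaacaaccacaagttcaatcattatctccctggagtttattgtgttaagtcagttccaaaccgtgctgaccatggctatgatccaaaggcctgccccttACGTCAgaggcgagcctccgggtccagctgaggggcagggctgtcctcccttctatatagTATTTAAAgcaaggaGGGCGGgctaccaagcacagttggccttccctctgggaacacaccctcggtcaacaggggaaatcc
Gpam, first window, chr19:55127189-55127488, minus strand: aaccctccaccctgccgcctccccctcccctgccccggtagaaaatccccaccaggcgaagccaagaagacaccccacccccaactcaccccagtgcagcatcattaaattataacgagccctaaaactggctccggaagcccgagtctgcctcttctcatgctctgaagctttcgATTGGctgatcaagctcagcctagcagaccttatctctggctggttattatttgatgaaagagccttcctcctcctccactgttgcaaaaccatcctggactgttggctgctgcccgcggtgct
Gpam, second window, chr19:55099428-55099727, minus strand: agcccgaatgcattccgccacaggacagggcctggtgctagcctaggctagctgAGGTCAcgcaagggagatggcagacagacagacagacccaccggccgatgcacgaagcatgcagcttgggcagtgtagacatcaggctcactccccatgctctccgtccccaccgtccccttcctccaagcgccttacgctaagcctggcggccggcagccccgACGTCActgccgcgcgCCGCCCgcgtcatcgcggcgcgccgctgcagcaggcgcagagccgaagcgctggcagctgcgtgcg
Lpin1, chr12:16610917-16611216, minus strand: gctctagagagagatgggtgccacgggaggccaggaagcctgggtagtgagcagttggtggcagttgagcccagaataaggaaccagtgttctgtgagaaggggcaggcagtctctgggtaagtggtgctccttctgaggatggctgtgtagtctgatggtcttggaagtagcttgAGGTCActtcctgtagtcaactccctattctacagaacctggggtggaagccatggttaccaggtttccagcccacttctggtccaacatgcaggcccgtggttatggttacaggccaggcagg

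In the Pck1 window, ACGTCA began 91 bases before the start and TATTTAAA 31 bases before it. ACGTCA is held by 7.51% of the 32851 promoter windows in the table and TATTTAAA by 1.81%, the latter being searched because the Pck1 promoter is known for it. GGGCGG began 16 bases before the Pck1 start and is held by 35.7% of windows. The second Gpam window also held ACGTCA (32 bases before the start), GGGCGG on the opposite strand (16 bases before) and AGGTCA (196 bases before). AGGTCA, which is in 16.3% of windows, began 74 bases before the Lpin1 start and appeared on the opposite strand in both Aqp7 windows. These windows overlap, and the match 49 bases before the start of the first is the same site as that 223 bases before the start of the second, which also held a match 101 bases before its start. The first Gpam window held CCAAT on the opposite strand, a motif of 37.4% of windows, and the Agpat2 window held GGGCGG at 3 places, of which 2 share a base. TATAAA (13.6% of windows) and CACGTG (7.15%) were in none of the 7 windows, which says only that these letters are not there.

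All 8 genes were abundant in eWAT. Dgat2 had the highest mean over the 19 mice (1114 FPKM, position 38 of 24237 genes), followed by Pck1 (548 FPKM, position 92), Gpd1 (437 FPKM), Agpat2 (355 FPKM) and Dgat1 (145 FPKM). Lpin1 (77.9 FPKM), Aqp7 (62.1 FPKM) and Gpam (54.6 FPKM) were the lowest, and Gpam still lay above 93.7% of genes. Pck1 varied most, by 12.5-fold between its lowest and highest mouse, while the others ranged from 2.07-fold (Dgat1) to 3.21-fold (Gpam).

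**Figure D1:**
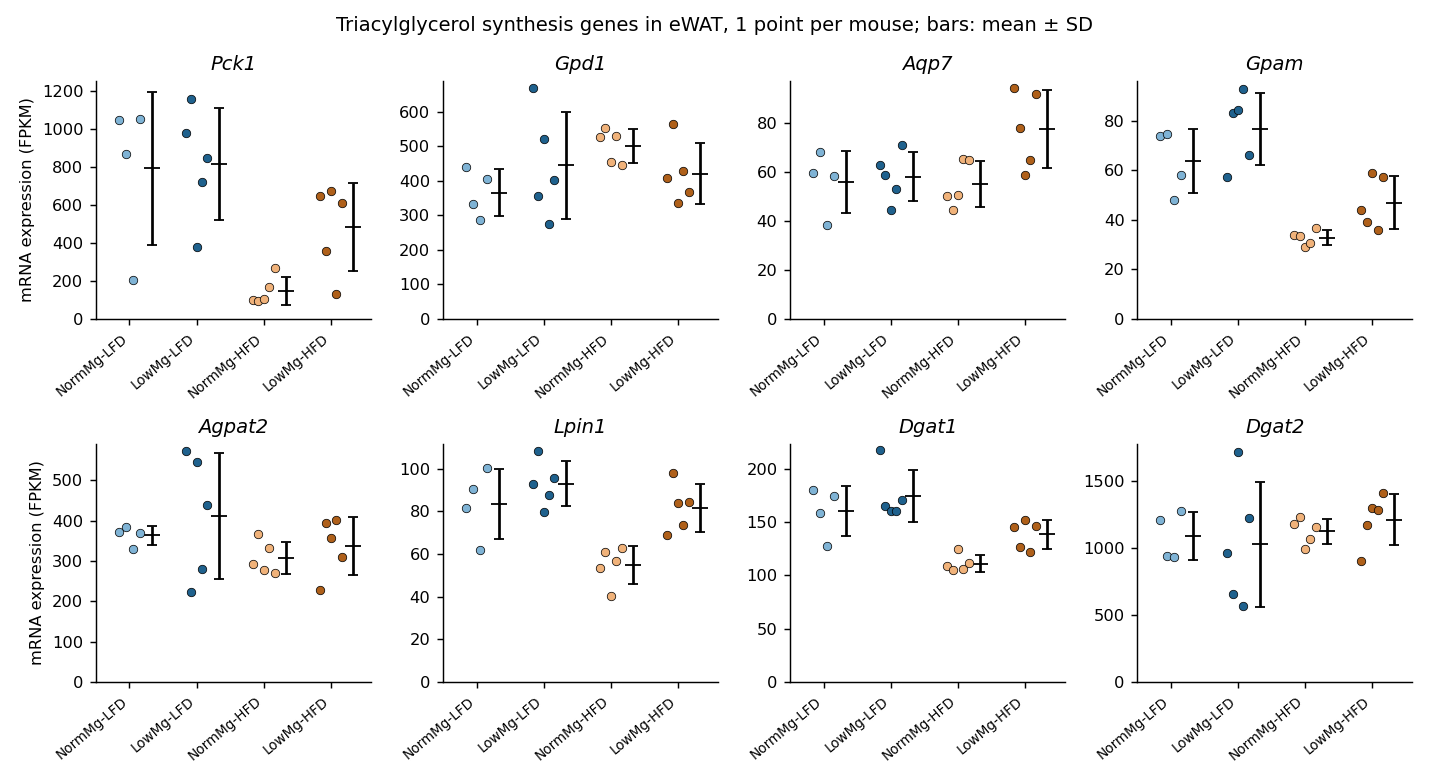
mRNA expression (FPKM, linear axis from 0) of the 8 genes in eWAT, with 1 point per mouse and the mean ± SD beside each of the 4 diet groups. Pck1, Gpam, Lpin1 and Dgat1 were lowest in NormMg-HFD mice, where mean Pck1 was 147 FPKM, while the groups of Agpat2 and Dgat2 overlapped.

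On the HFD, the mRNA of 4 of the 8 genes was higher at low than at normal Mg2+: Pck1, Gpam, Lpin1 and Dgat1, which stand for glyceroneogenesis, the first acylation, phosphate removal and the last acylation. None was lower. Among all genes tested, 5.58% were higher and 12.9% lower. The median log2 fold change of the 8 genes was 0.39, with 7 above 0, while that of all genes tested was -0.04.

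Pck1 stood at 132, 359.9, 609, 645 and 675 FPKM in the LowMg-HFD mice and at 92.8, 101, 105, 167 and 269.9 FPKM in the NormMg-HFD mice. A single LowMg-HFD mouse, replicate 4, lay within the NormMg-HFD range. The means were 484 ± 233 (SD, n = 5) and 147 ± 74.8 FPKM (SD, n = 5), with a ratio of 3.29. On the log2(FPKM + 1) scale the difference was 3.08-fold (log2 1.62 ± 0.48 SE; limma adjusted p = 0.0255). Without LowMg-HFD replicate 4, the log2 difference was 2.04 (limma adjusted p = 0.00661).

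Lpin1, whose product makes diacylglycerol, was the gene whose groups did not overlap. It measured 68.9, 73.4, 84.0, 84.1 and 97.8 FPKM in LowMg-HFD mice and 40.5, 53.2, 56.7, 60.8 and 62.9 FPKM in NormMg-HFD mice. Of all genes tested, 3.2% were higher without overlap. Lpin1 was 1.49-fold higher (log2 0.57 ± 0.14 SE; limma adjusted p = 0.00726), and it passed the threshold without any single mouse (adjusted p from 0.00431 to 0.0267).

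Gpam values were 35.9, 39.0, 43.8, 57.5 and 58.7 FPKM in LowMg-HFD mice and 28.9, 30.7, 33.3, 33.9 and 36.8 FPKM in NormMg-HFD mice. Again only replicate 4 of the LowMg-HFD mice lay inside the NormMg-HFD range, and the difference was 1.40-fold (log2 0.49 ± 0.16 SE; limma adjusted p = 0.0378). Dgat1 was at 122, 126, 145, 146 and 152 FPKM in LowMg-HFD mice and at 105, 106, 108, 112 and 124 FPKM in NormMg-HFD mice. Here too 4 of the 5 LowMg-HFD mice exceeded every NormMg-HFD mouse, with a difference of 1.24-fold (log2 0.31 ± 0.10 SE; limma adjusted p = 0.0436).

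These 3 calls lay near the threshold. Pck1 missed it without any one of NormMg-HFD replicates 1, 2 and 3 or LowMg-HFD replicates 1, 3 and 5 (limma adjusted p 0.0559 to 0.0720), and Gpam without any one of NormMg-HFD replicates 1 to 4 or LowMg-HFD replicates 3 and 5 (0.0556 to 0.108). Dgat1 missed it without any one of 9 mice: NormMg-LFD replicate 3, LowMg-LFD replicate 5, NormMg-HFD replicates 1, 2, 4 and 5, and LowMg-HFD replicates 1, 3 and 5 (0.0527 to 0.108). Dgat1 also missed it with median centring (0.0566), with a filter at FPKM 1 (0.0545), with no intensity trend (0.0522) and without NormMg-LFD replicate 3 and LowMg-LFD replicate 4 together (0.0552). With no filter, Pck1 (0.0800), Gpam (0.0965) and Dgat1 (0.0944) all missed it and Lpin1 passed (0.0218). With quantile normalization all 4 passed, and so did Aqp7 (0.0345). In exact two-sided permutation tests of each gene alone, p was 0.00794 for Lpin1, the smallest that 5 against 5 mice allow, 0.0159 for Gpam and Dgat1 and 0.0238 for Pck1.

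The other 4 genes did not pass. Aqp7 measured 58.9, 64.8, 78.0, 91.9 and 94.4 FPKM in LowMg-HFD mice against 44.7, 50.4, 50.5, 65.1 and 65.2 FPKM in NormMg-HFD mice. Of the LowMg-HFD mice, 3 lay above every NormMg-HFD mouse, and the log2 difference was 0.48 (limma adjusted p = 0.0536). It passed without any one of NormMg-LFD replicate 4, LowMg-LFD replicate 3, NormMg-HFD replicate 5 or LowMg-HFD replicates 3 and 4 (adjusted p 0.0311 to 0.0459). Gpd1, whose product makes glycerol 3-phosphate in both routes, was at 421 ± 87.9 FPKM in LowMg-HFD and 501 ± 48.6 FPKM in NormMg-HFD mice (SD, n = 5 each), a log2 difference of -0.27 (95% CI -0.67 to 0.13). The log2 difference was 0.12 for Agpat2 (95% CI -0.33 to 0.56) and 0.10 for Dgat2 (95% CI -0.37 to 0.56), so that changes of either sign remain within these intervals.

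Markers of cell types moved with this comparison. The summed FPKM of 8 adipocyte markers was 14583 to 18414 in LowMg-HFD and 12625 to 16797 in NormMg-HFD mice, with 3 of 8 markers higher and none lower. The sum of 9 macrophage markers was 591 to 1513 against 1744 to 2579 FPKM without overlap, and 8 of the 9 were lower in LowMg-HFD mice. The sum of 5 stromal progenitor markers was 128 to 143 against 217 to 281 FPKM, with 1 of the 5 lower, and that of 5 endothelial markers was 201 to 236 against 173 to 227 FPKM, with 1 of the 5 higher. No marker of either list was under 1 FPKM in all mice of a group. When each mouse was centred on its adipocyte markers, the median of all genes shifted by -0.38. Pck1 stayed higher (log2 1.24; limma adjusted p = 0.0154), Lpin1 (0.19) and Gpam (0.10) missed the threshold, Dgat1 turned to -0.07, and Gpd1 was lower (log2 -0.65; adjusted p = 0.0115). The part of cell composition in these differences was not tested.

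**Figure D2:**
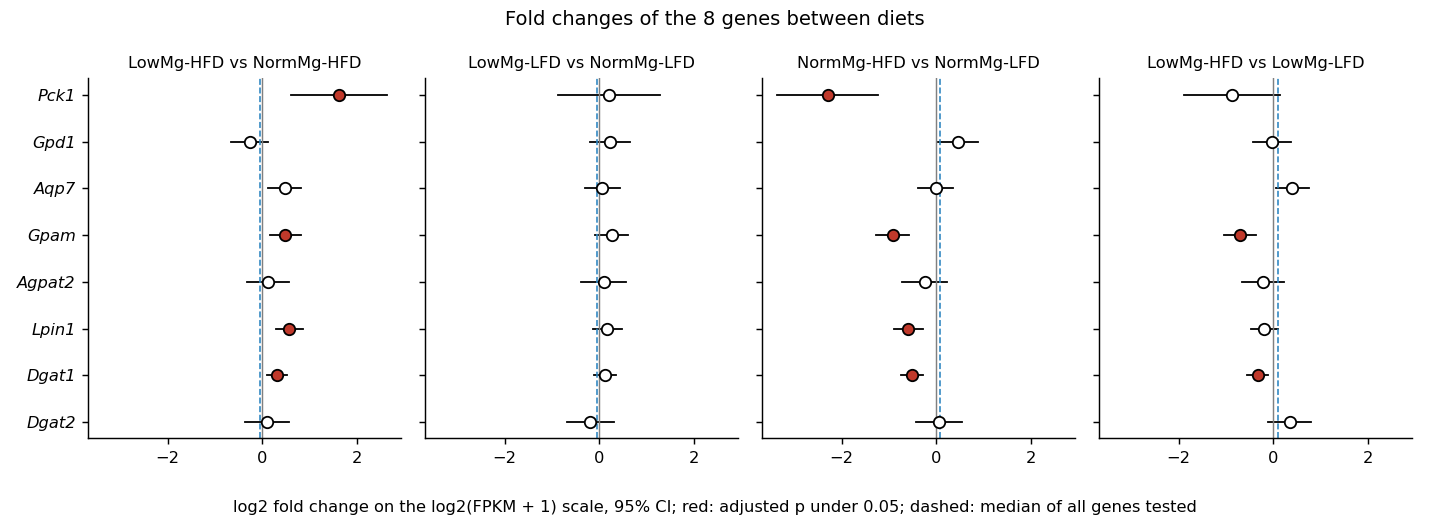
log2 fold change (log2(FPKM + 1) scale) of each gene in 4 comparisons, with 95% CI, red where the limma adjusted p is under 0.05 and a dashed line at the median of all genes tested. Pck1 had the widest interval, from 0.61 to 2.64 between the HFD groups, and no gene passed between the LFD groups.

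The effect of the HFD at normal Mg2+ was compared next. The same 4 genes were lower in NormMg-HFD than in NormMg-LFD mice, and none was higher. This comparison shares its NormMg-HFD mice with the one above, so that the values are not independent of it. Among all genes tested, 12.8% were lower and 24.6% higher, and the median log2 fold change was 0.07, while that of the 8 genes was -0.38.

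Pck1 was 205, 869, 1046 and 1055 FPKM in the NormMg-LFD mice, against a highest value of 269.9 FPKM in NormMg-HFD mice. The lowest of these, replicate 4, was the only NormMg-LFD mouse inside the NormMg-HFD range. Mean Pck1 was 794 ± 402 FPKM (SD, n = 4) on the NormMg-LFD, 5.40 times that on the NormMg-HFD. On the log2(FPKM + 1) scale Pck1 was 4.92-fold lower on the NormMg-HFD (log2 -2.30 ± 0.51 SE; limma adjusted p = 0.00163). Without NormMg-LFD replicate 4 the log2 difference was -2.86 (limma adjusted p = 0.000120).

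Gpam was at 48.2, 57.9, 74.0 and 74.6 FPKM in NormMg-LFD mice, above every NormMg-HFD mouse. It was 1.89-fold lower on the NormMg-HFD (log2 -0.92 ± 0.17 SE; limma adjusted p = 0.000245). Dgat1, at 128, 159, 174 and 180 FPKM in NormMg-LFD mice, likewise did not overlap and was 1.43-fold lower on the NormMg-HFD (log2 -0.52 ± 0.11 SE; limma adjusted p = 0.00113). Of all genes tested, 10.6% were lower without overlap. Lpin1, at 61.7, 81.4, 90.5 and 100 FPKM in NormMg-LFD mice, was 1.51-fold lower on the NormMg-HFD (log2 -0.59 ± 0.14 SE; limma adjusted p = 0.00322), with only replicate 4 of the NormMg-LFD mice inside the NormMg-HFD range. All 4 calls remained when any single mouse was left out, with a highest limma adjusted p of 0.0169 (Lpin1).

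Gpd1 took the opposite direction. It was at 287, 332, 405 and 439 FPKM in NormMg-LFD mice and at 444, 454, 527, 530.0 and 551 FPKM in NormMg-HFD mice, without overlap, as for 21.5% of all genes tested in that direction. The log2 difference of 0.47 ± 0.20 SE did not pass in limma (adjusted p = 0.0772), while the exact two-sided permutation test of this gene alone gave p = 0.00794, the smallest that 5 against 4 mice allow. It passed without LowMg-LFD replicate 1 (limma adjusted p = 0.0386) or replicate 4 (0.0439), and when only the NormMg groups were fitted (0.0131). The log2 difference was -0.25 for Agpat2 (95% CI -0.72 to 0.23), -0.01 for Aqp7 (95% CI -0.38 to 0.36) and 0.06 for Dgat2 (95% CI -0.43 to 0.55).

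Marker levels moved here as well. The macrophage sum was 488 to 592 FPKM in NormMg-LFD mice, with 8 of 9 markers higher and 1 lower on the NormMg-HFD. The stromal progenitor sum was 116 to 153 FPKM in NormMg-LFD mice, below every NormMg-HFD mouse, and 2 of the 5 markers were higher on the NormMg-HFD. Of the 8 adipocyte markers, 5 were lower and 1 higher on the NormMg-HFD. The sum of 4 mesothelial markers was 29.5 to 88.7 FPKM in NormMg-LFD and 8.38 to 19.5 FPKM in NormMg-HFD mice, with the 1 marker tested lower (log2 -1.86), and 1 of 5 endothelial markers was lower. With adipocyte marker centring, which shifted the median of all genes by 0.24, Pck1 (log2 -2.06), Gpam (-0.69) and Lpin1 (-0.36) were lower past the threshold. The centring uses the mean of the 8 markers, whose log2 fold change was -0.24, while their median was -0.65. It therefore took away less than the fall of the median marker. Dgat1 missed it (log2 -0.28; limma adjusted p = 0.0931) and Gpd1 was higher (log2 0.70; adjusted p = 0.0122). Median centring and quantile normalization shifted the median of all genes by -0.10 and -0.12, and Pck1, Gpam, Lpin1 and Dgat1 were lower past the threshold under both.

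At low Mg2+, 2 of the 8 genes, Gpam and Dgat1, were lower on the HFD than on the LFD. This comparison shares its LowMg-HFD mice with the first. The share of genes called lower was 3.51% of all genes tested, and none of the 8 was higher (12.4% of all). Gpam was at 57.3, 66.0, 83.1, 84.5 and 92.8 FPKM in LowMg-LFD mice, and only 2 LowMg-HFD mice reached its lowest value there. It was 1.63-fold lower on the LowMg-HFD (log2 -0.70 ± 0.16 SE; limma adjusted p = 0.00566).

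Dgat1 was at 160.1, 160.5, 165, 171 and 218 FPKM in LowMg-LFD mice and did not overlap with the LowMg-HFD mice, as for 2.3% of all genes tested in that direction. It was 1.26-fold lower (log2 -0.33 ± 0.10 SE; limma adjusted p = 0.0367), and missed the threshold without any one of LowMg-LFD replicates 1 and 5 or LowMg-HFD replicates 1, 2 and 4 (adjusted p 0.0549 to 0.113). It also missed it with no filter (0.0850) and when only the LowMg groups were fitted (0.0749). Pck1, at 378, 723, 847, 980.0 and 1159 FPKM in LowMg-LFD mice, differed by a log2 of -0.87 (95% CI -1.89 to 0.14; limma adjusted p = 0.240). Without LowMg-HFD replicate 4 it was -0.46, and without LowMg-LFD replicate 3 it was -1.13 (unadjusted p = 0.0356; limma adjusted p = 0.134). Lpin1 differed by -0.19 (95% CI -0.47 to 0.10) and Aqp7 by 0.40 (95% CI 0.05 to 0.75; limma adjusted p = 0.110). Gpd1 (log2 -0.03), Agpat2 (-0.22) and Dgat2 (0.34) did not pass. When single mice were left out, Dgat2 ran from 0.16 to 0.56 (lowest limma adjusted p = 0.0510). Agpat2 then ran from -0.42 to -0.08.

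Of the 9 macrophage markers, 6 were higher and none lower in LowMg-HFD than in LowMg-LFD mice, with sums of 591 to 1513 against 375 to 710 FPKM. A single marker each of the adipocyte, endothelial and stromal progenitor lists was higher and none lower. The adipocyte sum was 14583 to 18414 against 14665 to 18835 FPKM, and the stromal progenitor sum was 128 to 143 against 71.9 to 134 FPKM. With adipocyte marker centring, Gpam (log2 -0.79) and Dgat1 (-0.42) were lower past the threshold. The mean log2 fold change of the 8 adipocyte markers, which the centring uses, was 0.09, while their median was -0.14. The part of cell composition was not tested here either.

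Between the LFD groups, no gene of the 8 passed, nor did any of the 8336 genes tested in limma (0%), while 547 genes (6.56%), none of the 8 among them, had an unadjusted p under 0.05. The log2 differences of the 8 genes ran from -0.19 (Dgat2) to 0.27 (Gpam), and the 95% CI of Pck1 was -0.88 to 1.28. Without LowMg-LFD replicate 1, Gpam had a log2 difference of 0.36 (limma unadjusted p = 0.0401, adjusted p = 0.999). When single mice were left out, Dgat2 ran from -0.41 to -0.0036. Dgat2, Agpat2, Pck1 and Gpd1 were widely spread in LowMg-LFD mice, with coefficients of variation of 45.6%, 37.9%, 36.0% and 34.6%. Dgat2 ranged there from 564 to 1721 FPKM.

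The interaction tested whether the Mg2+ difference depended on the fat level. It passed for 1.25% of all genes and for none of the 8 in limma, and none of the 8 had an unadjusted p under 0.05 (20.4% of all genes). With 1 mouse left out, up to 3 of the 8 had such a p. Without NormMg-LFD replicate 4 the unadjusted interaction p was 0.00479 for Pck1, 0.00880 for Lpin1 and 0.0187 for Aqp7 (limma adjusted p 0.0830, 0.106 and 0.146), and without LowMg-HFD replicate 4 it was 0.00835 for Pck1 and 0.0460 for Lpin1 (adjusted p 0.112 and 0.238). Both genes also had such a p without LowMg-LFD replicate 2 or NormMg-HFD replicate 5, and Lpin1 without NormMg-HFD replicate 2 or LowMg-HFD replicate 1. Gpd1 had one without LowMg-LFD replicate 4 or LowMg-HFD replicate 2, and Aqp7 without LowMg-HFD replicate 3. With quantile normalization the unadjusted interaction p of Pck1 was 0.0381 (limma adjusted p = 0.196). With adipocyte marker centring that of Gpd1 was 0.0103 (limma adjusted p = 0.0809). With all mice, the interaction was largest in size for Pck1 (log2 1.42, 95% CI -0.06 to 2.90; limma adjusted p = 0.263), followed by Gpd1 (-0.50), Aqp7 (0.41) and Lpin1 (0.41, 95% CI -0.01 to 0.82). A different effect of Mg2+ at the 2 fat levels was therefore not shown for any of them.

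Ordered by group mean, Pck1, Gpam, Agpat2, Lpin1 and Dgat1 had the same order: LowMg-LFD, NormMg-LFD, LowMg-HFD and NormMg-HFD. For Pck1, Gpam, Lpin1 and Dgat1, the step from LowMg-HFD to NormMg-HFD was the only step between neighbours that passed the test, and for Agpat2 no step passed. Between the NormMg-LFD and the LowMg-HFD, the log2 difference was -0.67 for Pck1, -0.44 for Gpam, -0.02 for Lpin1 and -0.20 for Dgat1, none past the threshold. Aqp7 was highest in LowMg-HFD mice (77.6 ± 15.8 FPKM, n = 5) and between 55.2 and 58.1 FPKM in the other groups. Gpd1 was highest in NormMg-HFD mice, Dgat2 in LowMg-HFD mice, and no step between neighbours passed for these 3 genes.

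Of the 2 enzymes of the last acylation, Dgat2 exceeded Dgat1 in every mouse, by 3.52-fold to 11.7-fold in FPKM. The ratio was 6.81 ± 0.66 (SD, n = 4) in NormMg-LFD, 5.97 ± 3.02 (SD, n = 5) in LowMg-LFD, 10.2 ± 1.37 (SD, n = 5) in NormMg-HFD and 8.83 ± 1.63 (SD, n = 5) in LowMg-HFD mice. No difference in response between Dgat1 and Dgat2 was tested. In the table's own annotation, Dgat1, Dgat2 and Gpam share the process positive regulation of triglyceride biosynthetic process, and Pck1 and Gpd1 share gluconeogenesis.

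Across the 19 mice, sets of the genes, formed after their values were seen, varied together. Pearson's r of log2(FPKM + 1) was 0.72 to 0.88 among Pck1, Gpam, Lpin1 and Dgat1, and 0.44 to 0.53 among Gpd1, Agpat2 and Dgat2. Between these sets it was -0.47 to 0.38. After each diet's mean was taken away, r was 0.15 to 0.67 within the first set and 0.52 to 0.73 within the second, and Aqp7 went with Pck1 (r = 0.72). These are descriptions over mice that share diets and library preparation, with no test.

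**Figure D3:**
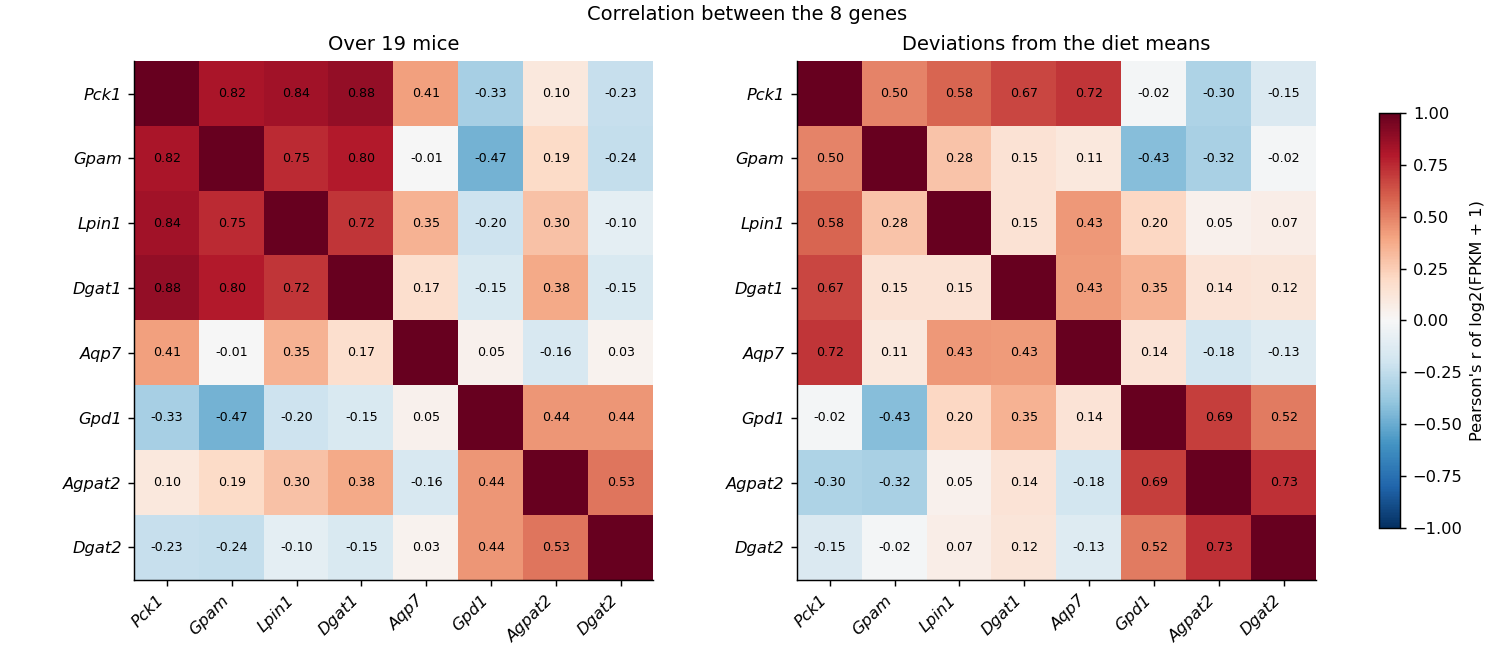
Pearson's r of log2(FPKM + 1) for each pair of the 8 genes, over the 19 mice (left) and for deviations from the diet means (right), from -1 (blue) to 1 (red). Pck1 and Dgat1 were the closest pair over all mice (r = 0.88), and Agpat2 and Dgat2 the closest within diets (r = 0.73).

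Among the 8328 other genes tested, those most like each gene over the 19 mice were found by r. For Pck1 they were Chst1 (0.95) and Lipe (0.95), for Gpam Slc1a3 (0.95) and Crls1 (0.95), for Lpin1 Nrg4 (0.93) and Sntb1 (0.91), and for Dgat1 Lrrc24 (0.96) and Cox8a (0.94). Aqp7 was followed by Hsdl2 (0.81) and Actn4 (0.79), Gpd1 by Gys2 (0.88) and 4931406C07Rik (0.85), and Agpat2 by Sorl1 (0.87) and Pmvk (0.86). For Dgat2 they were Hist2h3c2 (0.90) and an unnamed gene, ENSMUSG00000110344.1 (0.89). The mean profile of the 8 genes was most like Hadh (0.95), Cisd1 (0.91), D10Jhu81e (0.90), Ghitm (0.89) and Lonp2 (0.89). Within diets, r of these genes with their profile was 0.69 to 0.92.

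A list of 26 other genes of the pathway was read beside the 8, of which 18 were tested. Between LowMg-HFD and NormMg-HFD mice, 5 were higher and 1 lower (5.58% and 12.9% of all genes tested), and the median log2 fold change was -0.01, against -0.04 for all genes tested. The higher genes were the endoplasmic reticulum glycerol-3-phosphate acyltransferases Agpat9 (also Gpat3; 40.7 against 25.0 FPKM, log2 0.68, limma adjusted p = 0.0130) and Gpat4 (log2 0.54, adjusted p = 0.0445), Agpat3 (log2 0.27, adjusted p = 0.0401), the monoacylglycerol acyltransferase Mogat1 (16.9 against 8.21 FPKM, log2 0.96, adjusted p = 0.00762) and the droplet protein Fitm2 (log2 0.36, adjusted p = 0.0256). Gpat4 was widely spread in LowMg-HFD mice, at 53.3 ± 21.6 FPKM (SD, n = 5), with its highest mouse at 91.65 FPKM. In NormMg-HFD mice it was at 34.5 ± 1.52 FPKM (SD, n = 5). Acsl4, which activates long polyunsaturated fatty acids, was lower (log2 -0.40, adjusted p = 0.0465). The 12 others ran from a log2 of -0.50 (Mogat2) to 1.09 (the mitochondrial dehydrogenase Gpd2, limma adjusted p = 0.0771). Gpd2 was at 57.9 FPKM in LowMg-HFD replicate 4 and at 5.42 to 9.80 FPKM in the other LowMg-HFD mice, against 4.00 to 5.04 FPKM in NormMg-HFD mice, so that 1 mouse held most of the difference in mean.

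Between NormMg-HFD and NormMg-LFD mice, 6 of the 18 were lower and 4 higher (12.8% and 24.6% of all genes tested), with a median log2 fold change of 0.01, against 0.07 for all genes tested. Mogat1 (8.21 against 34.8 FPKM, log2 -1.99, limma adjusted p = 4.69e-06), Gpd2 (log2 -1.57), Agpat9 (-1.12), pyruvate carboxylase Pcx (-0.84), Gpat4 (-0.72) and Agpat3 (-0.25) were lower. Acsl5 (log2 0.63), Agpat4 (0.61), Acsl4 (0.56) and Agpat5 (0.41) were higher. Of these 10 genes, Acsl5, Pcx, Agpat9, Gpat4 and Agpat3 met the filter in both groups, whereas Agpat4, Acsl4 and Agpat5 met it only in NormMg-HFD and Gpd2 and Mogat1 only in NormMg-LFD mice, the group where each was high, so that their calls are not independent of the filter. Between the HFD groups the same held for Mogat1, which met the filter only in LowMg-HFD, and for Acsl4, which met it only in NormMg-HFD mice. Pcx (log2 -0.83) and Mogat1 (-1.29) were also lower, and Acsl5 (0.30) higher, in LowMg-HFD than in LowMg-LFD mice, where 3.51% of all genes tested were lower and 12.4% higher. Between the LFD groups and for the interaction, none of the 18 passed. Pck2, Aqp3, Aqp9, Gpat2, Lpin2, Lpin3, Acsl3 and Fitm1 were below the filter.

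**Figure D4:**
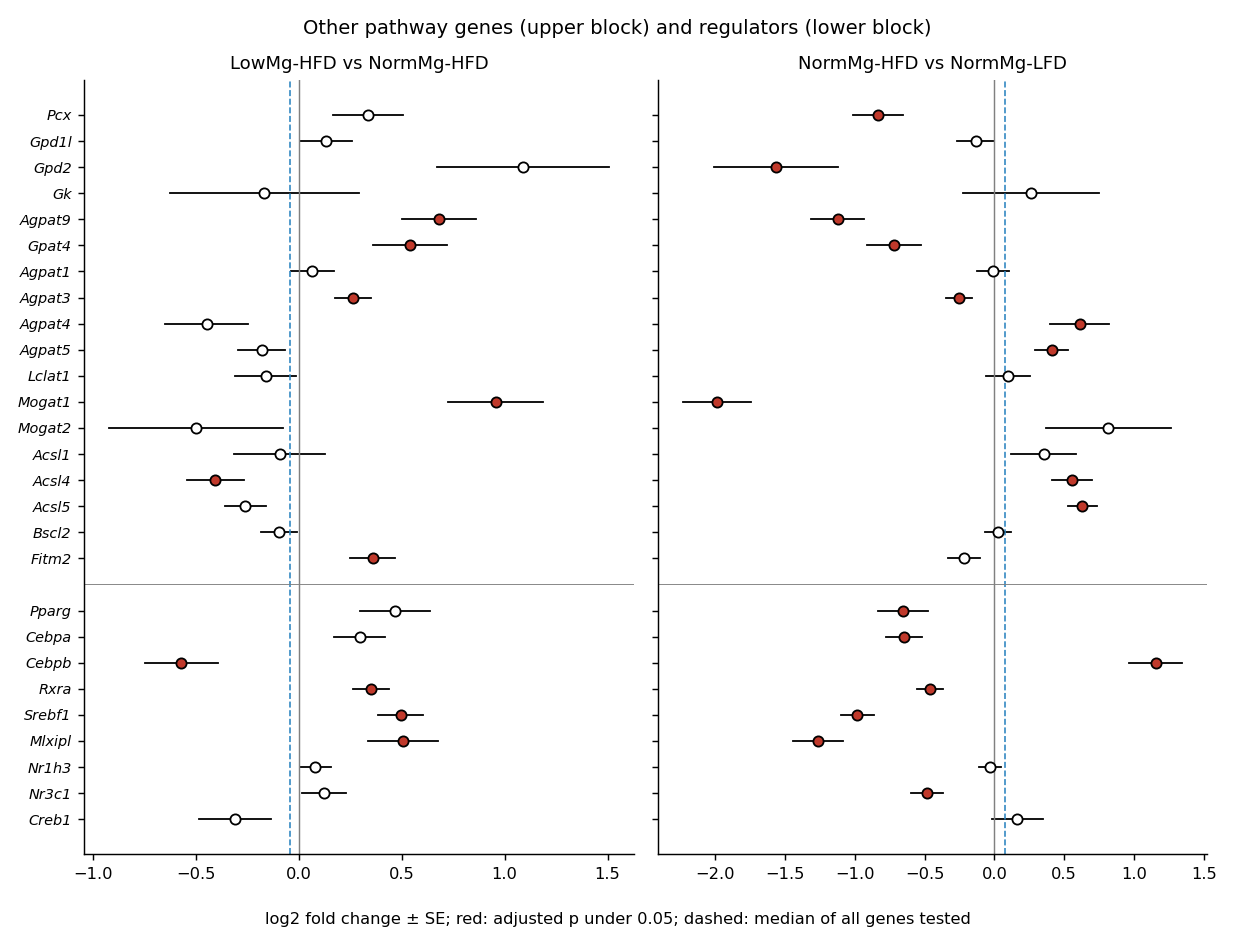
log2 fold change ± SE of the 18 other pathway genes tested (upper block) and 9 regulators (lower block) for LowMg-HFD against NormMg-HFD mice (left) and NormMg-HFD against NormMg-LFD mice (right), red where the limma adjusted p is under 0.05. The 2 panels share the NormMg-HFD mice and have different horizontal scales, and Mogat1 was at 0.96 on the left and -1.99 on the right.

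Of 11 transcriptional regulators of adipocyte lipid genes, 9 were tested. In LowMg-HFD against NormMg-HFD mice, Rxra (log2 0.35, limma adjusted p = 0.00889), Srebf1 (0.50, adjusted p = 0.00516) and Mlxipl (0.51, adjusted p = 0.0435) were higher and Cebpb (-0.57, adjusted p = 0.0328) was lower, where 5.58% of all genes tested were higher and 12.9% lower. The median log2 fold change of the 9 was 0.30. Pparg, the master regulator of fat cells and of Pck1 in them, differed by a log2 of 0.47 (limma adjusted p = 0.0621). In NormMg-HFD against NormMg-LFD mice, 6 were lower: Mlxipl (log2 -1.26), Srebf1 (-0.98), Pparg (-0.66), Cebpa (-0.65), Nr3c1 (-0.48) and Rxra (-0.46). Cebpb was higher (log2 1.15). Of all genes tested, 12.8% were lower and 24.6% higher, and the median log2 fold change of the 9 was -0.48. Pparg and Cebpa are also among the adipocyte markers. In LowMg-HFD against LowMg-LFD mice, Srebf1, Mlxipl and Nr3c1 were lower and Cebpb higher (3.51% and 12.4% of all genes tested). None passed between the LFD groups or for the interaction, and Ppara and Ppargc1a were below the filter.

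**Figure D5:**
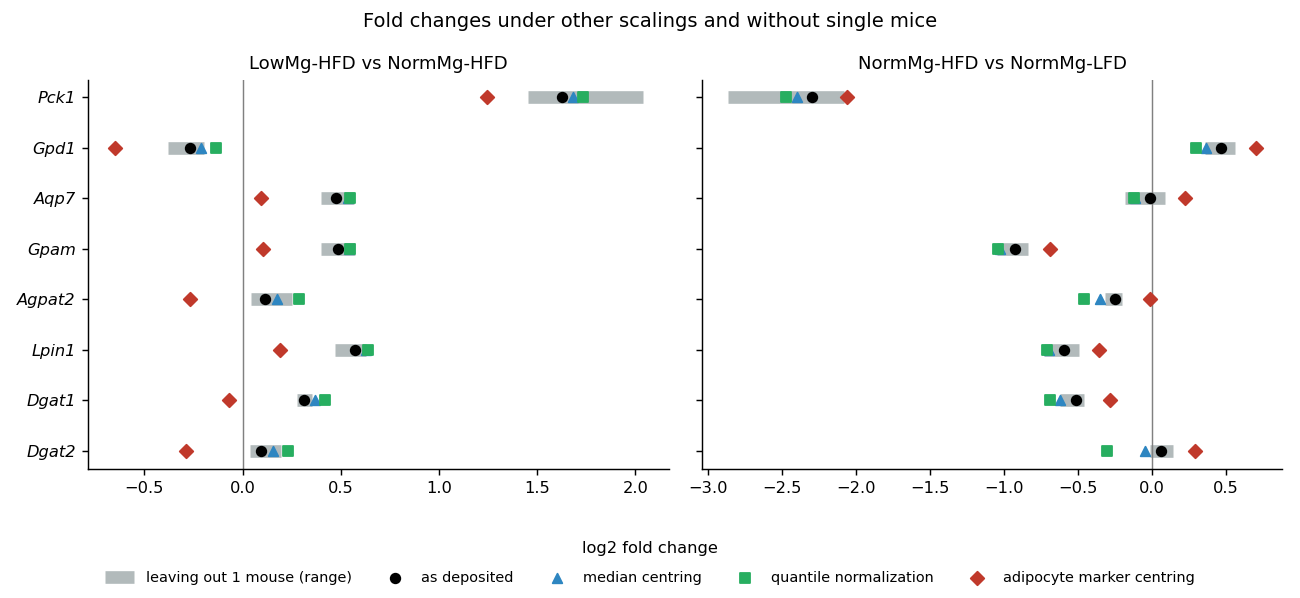
log2 fold change of the 8 genes as deposited and under 3 other scalings, with grey bars for the range when single mice were left out, for LowMg-HFD against NormMg-HFD (left) and NormMg-HFD against NormMg-LFD mice (right). Dgat1 moved from 0.31 to -0.07 on the left with adipocyte marker centring, while Pck1 kept its sign under the 4 scalings in both comparisons.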

How the data were processed

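RNA from the eWAT of 19 mice was sequenced by the authors (50 bp single-end reads). Per the study's methods and the submitters' processing notes, HISAT and Bowtie2 served for alignment (build GRCm38/mm10) and RSEM 1.2.31 for quantification, which gave the FPKM per gene that the authors deposited. They also deposited the count of reads per library and the percent mapped. These FPKM are not counts, so no count test was run, and precision was taken from the spread between mice. One gene with a cell that is not a number was left out, and 26 symbols turned into dates were restored. LowMg-LFD columns, named LowMgD in the table, were matched to titles by replicate number.

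A gene was tested if its group mean and at least 4 mice of that group exceeded an FPKM of 8. Tests used log2(FPKM + 1) and limma 3.58.1 (R 4.3.3), with 4 groups in 1 fit, an intensity trend and Benjamini-Hochberg adjustment. Exact permutation tests served single genes. The scripts were tested on simulated data. Alternatives were another pseudocount, filter and scaling, no trend, only the groups compared, a replicate block, and mice left out. The members and lists were chosen with earlier results of these data known. Named genes are the 8 members, listed pathway genes and regulators that passed between the HFD groups or between the NormMg groups, and those most like each member (2 each, 5 for their mean). Others were named after their values were seen. Figures were drawn with matplotlib 3.10.9.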

Additional observations from a re-analysis of the deposited data

Results flagged for a closer look

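Among 64 checks of a diet group for a mouse that stood far from the others (8 genes and 8 marker lists, 4 groups each), 7 checks in 5 mice found one, where chance gives about 1 in 20 checks. Values are log2(FPKM + 1), and for lists the mean over genes. Pck1 in NormMg-LFD replicate 4 was 7.68 (205 FPKM), with the nearest mouse at 9.77. Dgat1 in LowMg-LFD replicate 1 was 7.77 (218 FPKM), with the nearest at 7.42. Exocrine pancreas genes in NormMg-LFD replicate 3 averaged 6.95, with the nearest mouse at 0.67. Epididymis genes averaged 3.66 in LowMg-LFD replicate 4 (nearest 0.071) and 0.50 in LowMg-HFD replicate 4 (nearest 0.091). Thermogenic genes averaged 1.59 in NormMg-LFD replicate 4 (nearest 1.66) and 2.47 in LowMg-LFD replicate 1 (nearest 1.94).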

How the results depend on the processing

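Of 1224 recomputed values of single genes, 1131 kept their direction and side of the threshold. Of the 8 genes, 4 passed between the HFD groups, and the number was 1 with no filter and 2 with adipocyte marker centring (1 to 5 without single mice). It was 3, without Dgat1, with median centring, a filter at FPKM 1, no trend or NormMg-LFD replicate 3 and LowMg-LFD replicate 4 left out, and 5 with quantile normalization. It was also 5, with Aqp7 added (limma adjusted p = 0.0465), with LowMg-HFD replicate 4 left out and log2(FPKM + 1) over 3. All genes called went from 1542 to 4440 with adipocyte marker centring (921 to 1644 without single mice). For the HFD at low Mg2+, 1 gene of the 8 in place of 2 passed with no filter, with only the groups compared, and with LowMg-HFD replicate 4 left out and log2(FPKM + 1) over 3 (1 to 2 without single mice). There, 1329 genes became 569 with adipocyte marker centring and 725 with only the groups compared (800 to 1468 without single mice). Interaction calls, 104 of all genes, were 24 with a pseudocount of 0.1, 48 with a filter at FPKM 1, 2 with no filter, 245 with median centring, 347 with quantile normalization, 540 with adipocyte marker centring, 67 with no trend, 35 with LowMg-HFD replicate 4 left out and the log2 filter, and 1 with NormMg-LFD replicate 3 and LowMg-LFD replicate 4 both left out, the last chosen after the data were seen (0 to 482 without single mice). Between the LFD groups, 1 gene passed with no filter and 1 with those 2 mice left out. For the HFD at normal Mg2+ 4 or 5 genes of the 8 passed in all settings, with Gpd1 in place of Dgat1 under adipocyte marker centring and as the fifth with only the groups compared. The causes of these changes were not tested.

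The share of calls that were lower between the HFD groups was 69.8%, and 56.7%, 52.8% and 98.3% with median, quantile and adipocyte marker scaling. At normal Mg2+, the share higher on the HFD was 65.8%, and 50.1%, 46.9% and 88.3%, and at low Mg2+ 78.0%, and 52.8%, 50.9% and 56.4%.

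Directions turned only for genes that did not pass under the alternative. With adipocyte marker centring they did so between the HFD groups for Agpat2 (-0.27), Dgat1 (-0.069) and Dgat2 (-0.29), for the HFD at normal Mg2+ for Aqp7 (0.23), and for the interaction of Gpam (-0.10), Agpat2 (-0.30), Dgat1 (-0.14) and Dgat2 (-0.037). For the HFD at normal Mg2+, Dgat2 was -0.044 and -0.30 with median and quantile scaling. With the 2 mice left out, Dgat2 was -0.0079, Aqp7 0.092 and the Agpat2 interaction -0.12, and that interaction was -0.044 without LowMg-HFD replicate 4 and with the log2 filter. Without single mice, the ranges that crossed 0 were -0.37 to 0.45 (Pck1), -0.11 to 0.16 (Aqp7) and -0.053 to 0.29 (Agpat2) between the LFD groups, -0.18 to 0.092 (Aqp7) and -0.013 to 0.14 (Dgat2) for the HFD at normal Mg2+, -0.19 to 0.13 (Gpd1) at low Mg2+, and -0.17 to 0.17 for the Agpat2 interaction.

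Replicate numbers did not pair the samples: deviations of same-numbered mice correlated at -0.18 to 0.34 (mean 0.0080, 27 pairs). With the replicate block, 5 of the 8 genes passed between the HFD groups, Aqp7 (limma adjusted p = 0.0480) being the addition, and 0 genes passed the interaction in limma (1576 at an unadjusted p under 0.05, among them Pck1 at 0.0368 and Lpin1 at 0.0456). The number of reads per gene is not known from FPKM, which limits what can be said of low genes.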
